A study of Homo sapiens with 4 samples.

Results

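Translation initiation factors are the proteins that bring the initiator tRNA, the messenger RNA and the ribosomal subunits together, and the eIF2 kinases are the enzymes that slow this step under stress. Their genes were taken from the deposited table by symbol: EIF1 to EIF6 with at most a letter, a digit and a letter after the number, EIF2AK1 to EIF2AK4, and EIF4EBP1 to EIF4EBP3. The rule found 54 genes among 57820 rows, and no symbol occurred more than once. It also took in EIF1AD, which shares a domain with eIF1A and is not an initiation factor. RNA was sequenced from U87 cells, an established human glioma line, carrying either a control hairpin (labelled shNT) or a hairpin against GLUD1 (labelled shGlud1), with 2 libraries in each group. GLUD1 encodes the mitochondrial glutamate dehydrogenase. All 4 libraries came from cells grown in medium with 10% bovine calf serum and held in low glucose for 6 h, so no group was kept in normal glucose. The sources used here do not give the hairpin sequences, the glucose level or whether a line was a clone or a pool.

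In the scanning pathway, the factor eIF2 carries the initiator tRNA as a complex with GTP, eIF3 and the small eIF1 and eIF1A proteins hold the small ribosomal subunit open, and eIF4F (eIF4E, eIF4G and eIF4A) binds the cap and unwinds the leader. After the start codon is met eIF5 triggers GTP hydrolysis, eIF5B joins the large subunit, and eIF2B reloads eIF2 with GTP. The kinases HRI, PKR, PERK and GCN2 phosphorylate the alpha subunit of eIF2, which turns it into an inhibitor of eIF2B, lowers general initiation and favours translation of ATF4. The 4E-BPs hold back eIF4E when mTOR is inactive.

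Library totals were 16546849 to 18537314 expected counts, and TMM factors, which correct totals for composition, ran from 0.826 to 0.845 in shNT and from 1.15 to 1.24 in shGlud1. Counts within a group differed by more than sampling noise: divided by its degrees of freedom, chi-square was 5.99 between the shNT pair and 15.1 between the shGlud1 pair. Separate cultures are not named in the labels, and the p-values therefore rest on a spread between libraries that may be technical. GLUD1 was at 78.1 and 76.5 CPM (depth-scaled counts, here with TMM factors) in shNT and at 34.0 and 44.5 CPM in shGlud1 (a log2 fold change of -0.98 with SE 0.13; edgeR's quasi-likelihood test gave an adjusted p of 1.26e-12). Of 8 glial and mesenchymal markers, VIM was at 2424.5 and 2279 CPM in shNT and at 4436 and 4915 CPM in shGlud1. CD44 was at 724 to 794 CPM. NES was at 8.06 and 7.19 CPM in shNT and at 29.8 and 28.5 CPM in shGlud1. FABP7 was at 2.64 and 3.01 CPM in shNT and at 1.60 and 1.48 CPM in shGlud1. GFAP, S100B, OLIG2 and SOX2 were under 1 CPM in every library, and SOX2 had no count. Markers of endothelium (2) and epithelium (3) were all under 1 CPM. Of 4 immune markers CD68 alone was above 1 CPM (275 to 398), and 2 of 4 neuronal markers stayed under it, with summed neuronal levels of 5.23 and 5.79 CPM in shNT and 7.65 and 8.59 CPM in shGlud1.

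Of the 54 genes, 52 had enough counts to be tested. EIF4E1B, a germ cell relative of eIF4E with 0 to 2 counts, and EIF1AY, listed at 0, did not. Under edgeR's quasi-likelihood test, with p adjusted over all 14616 genes tested and called under 0.05, 24 of the 52 were higher in shGlud1 (46.2%) and 15 were lower (28.8%). As background, 61.0% of tested genes passed, with 31.9% of tested genes higher and 29.1% lower. With all 4 libraries the share of members that rose was above the background and the share that fell was close to it. The median log2 fold change was 0.17 over the members and 0.06 over all genes. CPM values of the groups did not overlap for 47 members, which has little weight because 81.0% of all genes tested showed the same. The members together took 0.972% and 0.947% of all counts in shNT and 1.11% and 1.17% in shGlud1. Without shNT replicate 1 the counts were 13 higher and 11 lower, against 23.9% and 22.3% of all genes (46.1% called). Without shNT replicate 2 they were 14 and 13, against 24.3% and 22.2% (46.5% called). In those fits the share of members that rose was close to the background, unlike with all 4 libraries. Fewer of all genes were called in those fits too, and how far that lowered the share of rises was not tested. For the fits without a shGlud1 library the share of all genes called was not computed, so they are not compared here. In bulk RNA, a lower value from fewer cells of a kind and one from less RNA per cell cannot be told apart.

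Scaling and transcript length touch all of these values. Scaled by total counts alone, the median of all genes moved to 0.57, and 36 members were higher and 6 lower (65.6% of all genes were called, 51.9% higher and 13.7% lower). The 6 were EIF5, EIF2D, EIF3E, EIF3G, EIF4EBP1 and EIF6, and the other 9 falls are falls relative to the bulk of genes that this scaling does not call. Relative to the median of all genes, no member's log2 fold change differed by more than 0.012 between the scalings, so total counts shift the zero line and leave the order of the members as it was. Log2 fold change also followed the length of the principal transcript, with a Spearman correlation of 0.475 across all genes and 0.587 across the 52 members (genes are not independent samples). With the mean CPM in shNT, which itself enters the fold change, the correlation across the members was -0.655. Abundant members thus tended to fall and scarce ones to rise. The parts of level and of length were not told apart, and no trend on level was removed. The median principal transcript was 4448 nt for members that rose and 2005 nt for members that fell. With a smooth trend on that length removed, 20 members were higher and 13 lower, against 26.6% and 28.4% of all genes (55.0% called). A trend on the longest annotated transcript gave 20 and 14, against 26.9% and 28.8% (55.7% called), and adding GC share to it gave 21 and 19, against 27.2% and 28.3% (55.5% called). Of the uncorrected calls, 16 rises and 11 falls kept their call and direction under the principal-transcript trend. The part of length in any single change was not tested, so the value with this trend removed is given for members called in either fit where it ends a call or moves the change by over 1.5 times.

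**Figure D1:**
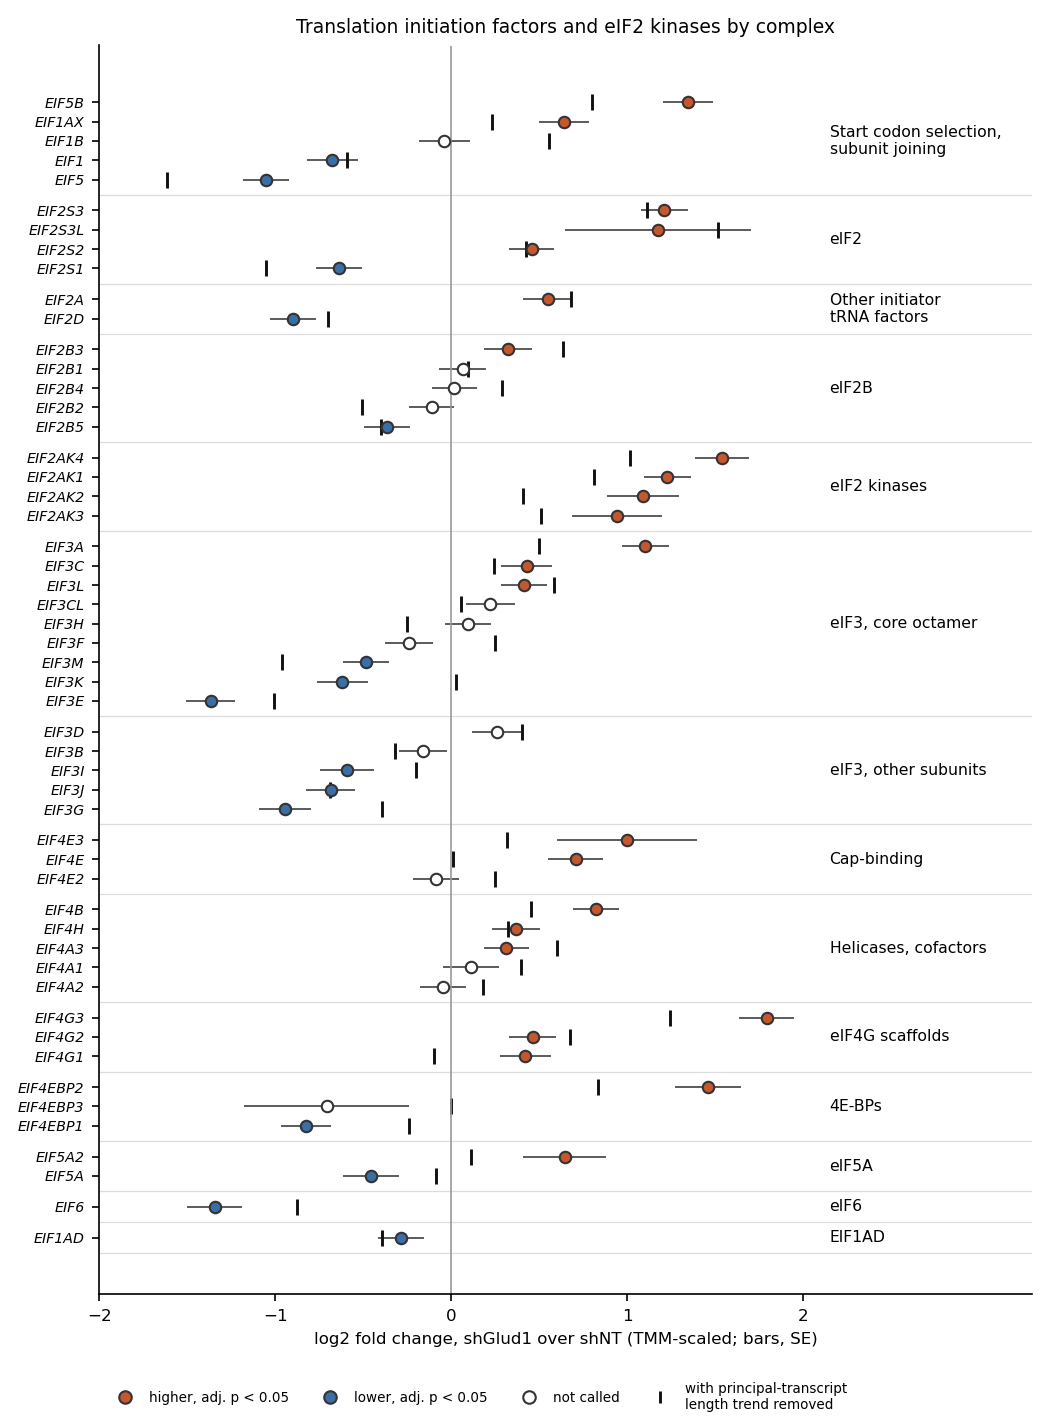
Log2 fold change of each member tested (x axis, shGlud1 over shNT; bars are SE) by complex (y axis), with filled points for adjusted p under 0.05 and black ticks for the value with the principal-transcript length trend removed. All 4 eIF2 kinases lie between 0.94 and 1.54, and the eIF2 subunits lie on both sides of 0.

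**Figure D2:**
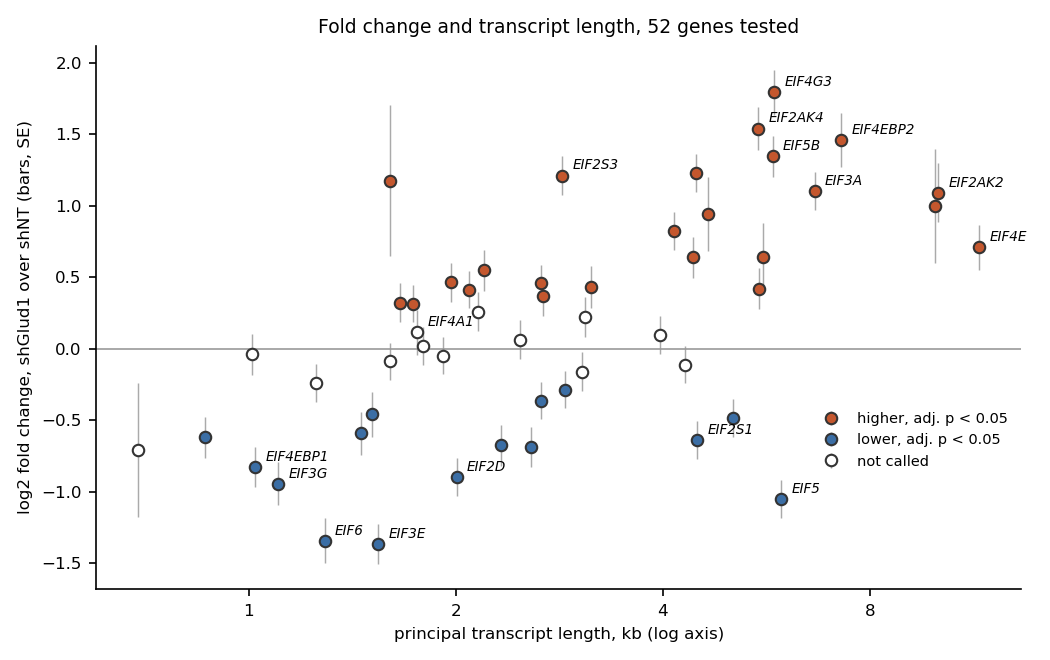
Log2 fold change (y axis, shGlud1 over shNT; bars are SE) against principal transcript length in kb (x axis, log scale) for the 52 members tested. Most long members lie above 0 and most short ones below, while EIF5 and EIF2S1 are long and lower, and EIF2S3 is higher at a middling length.

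All 4 genes for eIF2 kinases rose, where 31.9% of all genes tested did. EIF2AK4 (GRCh38 chromosome 15, 39934146 to 40035591) encodes GCN2, which senses uncharged tRNA when amino acids run short. It was at 13.0 and 16.1 CPM in shNT and at 38.1 and 46.7 CPM in shGlud1. This is a log2 fold change of 1.54 (SE 0.15, adjusted p = 8.99e-23), and both shGlud1 libraries lay far above both controls. With the length trend removed it was 1.02 and still called. EIF2AK1 (chromosome 7, 6022244 to 6059230) encodes HRI, the kinase that answers haem shortage and mitochondrial stress. Its levels were 33.8 and 29.5 CPM in shNT and 67.2 and 81.1 CPM in shGlud1 (1.23, SE 0.13, adjusted p = 1.74e-18, and 0.81 with the length trend removed, still called). Exons of EIF2AK1 and AIMP2 overlap on opposite strands by 532 bp, and the library kit does not mark strand, so some of its reads may belong to AIMP2.

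EIF2AK2 (chromosome 2, 37099210 to 37157065) encodes PKR, which is activated by double-stranded RNA. It was at 5.64 and 7.06 CPM in shNT and at 12.7 and 14.4 CPM in shGlud1 (1.09, SE 0.21, adjusted p = 5.25e-07). EIF2AK3 (chromosome 2, 88556741 to 88627576) encodes PERK, the kinase of the unfolded protein response in the endoplasmic reticulum. It had the lowest counts of the 4, at 4.03 and 3.01 CPM in shNT and 6.40 and 7.07 CPM in shGlud1 (0.94, SE 0.26, adjusted p = 0.000587). Neither PKR nor PERK overlapped between groups, as was so for 81.0% of all genes tested. Both lost their call with the length trend removed (0.41, adjusted p = 0.0561, and 0.51, adjusted p = 0.0611). PERK also lost it with length and GC trends removed (0.39) and without shNT replicate 2 (0.74). GCN2, HRI and PKR were called in each of the 4 fits that left out 1 library.

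The starts of the kinase genes are shown because all 4 members of this group were higher. RefSeq promoters (GRCh38.p14) were found for 44 of the 54 members, EIF2AK1 not among them. The 120 bases before the annotated start of each of the others read, with CCAAT boxes in capitals:
EIF2AK2 (PKR), chr2:37156981-37157100, minus strand: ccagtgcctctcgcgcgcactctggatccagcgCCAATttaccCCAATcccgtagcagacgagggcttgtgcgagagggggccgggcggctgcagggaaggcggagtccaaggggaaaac
EIF2AK3 (PERK), chr2:88627465-88627584, minus strand: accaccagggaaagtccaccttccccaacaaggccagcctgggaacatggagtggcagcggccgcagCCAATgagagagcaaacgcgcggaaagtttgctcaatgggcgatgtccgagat
EIF2AK4 (GCN2), chr15:39933995-39934114, plus strand: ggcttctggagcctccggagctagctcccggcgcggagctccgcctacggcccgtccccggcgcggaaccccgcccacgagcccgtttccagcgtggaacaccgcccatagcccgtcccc
The letters CCAAT, on either strand, were in 34.6% of all 35116 promoter windows of 300 bases and in 20 of the 44 member genes with a window (45.5%), 9 of them called as higher and 6 as lower. TGATGNAA, the core of the amino acid response element bound by ATF4 and its partners, was in 3.62% of all windows and in 1 member, EIF4E3. The E-box CACGTG was in 7.26% of all windows and in 12 member genes (27.3%), 8 called as higher and 1 as lower, with EIF2AK2 (PKR), EIF4E, EIF4B, EIF4G1 and EIF4H among the 8. A gene with several windows was counted if any held the letters, which raises the share of genes over the share of windows. For the counts called, 31.9% of all genes tested were higher and 29.1% lower, and 46.2% and 28.8% of the members tested. The windows run from 250 bases before to 50 after the start, and sites elsewhere were not searched.

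The 3 subunits of eIF2, the substrate of these kinases, did not move together. EIF2S1 (chromosome 14, 67359997 to 67386516) encodes the alpha subunit that carries the phosphorylation site. It was lower in shGlud1, at 96.3 and 109 CPM against 153 and 167 CPM in shNT (-0.64, SE 0.13, adjusted p = 4.08e-06). With the length trend removed the fall was larger (-1.05), and under total counts, which shift all values upward, EIF2S1 was at -0.12 and not called. EIF2S2, the beta subunit, was at 74.3 and 98.9 CPM in shNT and at 106 and 132 CPM in shGlud1 (0.46, SE 0.13, adjusted p = 0.000989). Its groups lay close and did not overlap, as was so for 81.0% of all genes tested, and the call was lost without shNT replicate 1 (0.27). EIF2S3 (chromosome X, 24054716 to 24077971), the gamma subunit that binds GTP and the initiator tRNA, was at 30.03 and 36.2 CPM in shNT and at 67.4 and 86.0 CPM in shGlud1 (1.21, SE 0.13, adjusted p = 4.00e-18). EIF2S3L, a near-identical copy of EIF2S3 whose reads may be shared with it, had 6 and 12 expected counts in shNT and 23 and 38 in shGlud1 (1.18, adjusted p = 0.0437). That call was lost in all 4 fits with a library left out and with DESeq2, RLE factors, no filter and the replicate block. EIF2S1 shares 253 bp of exon with ATP6V1D on the other strand, and reads there cannot be told apart.

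Ratios between genes inside a library do not depend on how libraries are scaled. They can still carry the trends on transcript length and on level where the genes differ in these. The count of EIF2S3 was 0.196 and 0.217 times that of EIF2S1 in shNT and 0.70005 and 0.788 times in shGlud1, a 3.60-fold difference of the means. For EIF2S2 the ratio to EIF2S1 went from 0.486 and 0.592 to 1.10 and 1.21. Per kb of principal transcript, EIF2S1 made up 47.0% and 42.7% of the eIF2 subunit signal in shNT and 25.3% and 23.4% in shGlud1, while EIF2S3 went from 14.5% in both shNT libraries to 27.8% and 28.9%. The 4 kinase genes summed to 0.370 and 0.333 times the EIF2S1 count in shNT and to 1.29 and 1.37 times in shGlud1. With 2 libraries against 2 no exact permutation test of a ratio could pass 0.05, so these are given as values. The ratios of eIF2 subunits and kinases, of EIF5B to EIF5 and of EIF3A to EIF3E were chosen after their values were seen.

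**Figure D3:**
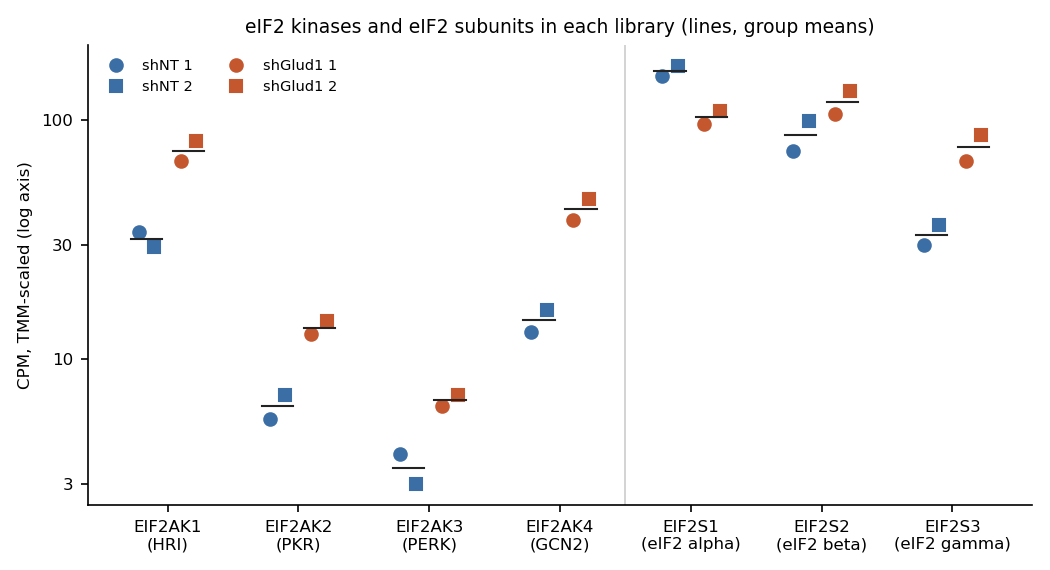
TMM-scaled CPM (y axis, log scale) of the 4 eIF2 kinase genes and the 3 eIF2 subunit genes in each library, with lines at group means. Both shGlud1 libraries lie above both shNT libraries for the 4 kinases, EIF2S2 and EIF2S3, and below them for EIF2S1 (96.3 and 109 against 153 and 167 CPM). Of all genes tested 81.0% did not overlap between groups either.

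The subunits of eIF2B, the exchange factor that phosphorylated eIF2 blocks, moved least of the larger complexes, with log2 fold changes from -0.36 to 0.32. EIF2B3, of the catalytic arm, was at 38.1 and 41.4 CPM in shNT and at 51.0 and 48.5 CPM in shGlud1 (0.32, SE 0.13, adjusted p = 0.0291, and 0.64 with the length trend removed). The call was lost with DESeq2 (adjusted p = 0.132), with RLE factors, and without shNT replicate 1, shNT replicate 2 or shGlud1 replicate 1. EIF2B5, the catalytic epsilon subunit, was at 116 and 103 CPM in shNT and at 85.2 and 84.7 CPM in shGlud1 (-0.36, SE 0.13, adjusted p = 0.00936), a call lost without shNT replicate 1 (adjusted p = 0.228) and under total counts (0.16). EIF2B1, EIF2B2 and EIF2B4 had values of 0.06, -0.11 and 0.02 and did not pass the test. With the length trend removed EIF2B2 was called as lower (-0.50) and EIF2B4 as higher (0.29), whereas with trends on the longest transcript and its GC share removed EIF2B4 was called as lower (-0.27), and with the longest-transcript trend alone it was at -0.24 and not called.

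Beyond eIF2, the factors that can place an initiator tRNA without it went in opposite directions. EIF2A was at 24.7 and 31.2 CPM in shNT and at 40.5 and 41.4 CPM in shGlud1 (0.55, SE 0.14, adjusted p = 0.000259). It shares 153 bp of exon with the more abundant SERP1 on the other strand and lost its call without shNT replicate 1 (adjusted p = 0.0955). EIF2D, which also takes part in recycling of ribosomes, was at 78.2 and 74.5 CPM in shNT and at 42.5 and 39.5 CPM in shGlud1 (-0.90, SE 0.13, adjusted p = 6.83e-11). EIF2D was called as lower under each of the scalings and length corrections run, at -1.52 with length and GC trends removed.

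Among the factors that select the start codon and join the subunits, 2 of the 5 tested rose and 2 fell, against 31.9% and 29.1% of all genes tested. EIF5, which activates the GTPase of eIF2 and whose own mRNA is under start codon control, was at 149 and 157 CPM in shNT and at 67.5 and 80.5 CPM in shGlud1 (-1.05, SE 0.13, adjusted p = 1.31e-14). Its annotated transcript is among the longest, and with the length trend removed the fall was -1.61, the largest fall of any member in that fit. EIF1, which guards against poor start codons, fell by 0.68 (SE 0.14, adjusted p = 1.03e-05), with 516 and 485 CPM against 316 and 310 CPM. Its relative EIF1B was level at 29.8 and 30.3 CPM against 30.7 and 27.8 CPM (-0.04, adjusted p = 0.832), though it was called as higher with total counts and with each length trend removed (0.56 for the principal transcript). EIF5B, the GTPase of subunit joining, was at 18.8 and 19.3 CPM in shNT and at 45.9 and 51.1 CPM in shGlud1 (1.35, SE 0.14, adjusted p = 3.06e-19, and 0.80 with the length trend removed). EIF5B overlaps REV1 on the other strand by 852 bp. EIF1AX, which encodes eIF1A, rose by 0.64 on the log2 scale (SE 0.14, adjusted p = 2.53e-05), but its call ended with the length trend removed (0.23, adjusted p = 0.148). Inside each library the count of EIF5B was 0.127 and 0.123 times that of EIF5 in shNT and 0.680 and 0.635 times in shGlud1.

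The eIF3 complex, the largest factor, had members on both sides. Of its 14 genes tested 3 rose and 6 fell, with a median of -0.20, where 31.9% of all genes tested rose and 29.1% fell. In the core octamer EIF3A, its longest subunit, was at 34.4 and 35.8 CPM in shNT and at 69.3 and 81.6 CPM in shGlud1 (1.10, SE 0.13, adjusted p = 2.18e-15, and 0.50 with the length trend removed, still called). EIF3E was at 377 and 401 CPM in shNT and at 157 and 145 CPM in shGlud1 (-1.37, SE 0.14, adjusted p = 7.09e-21), the largest fall of any member in the fit without length correction. It stayed called as lower, at -1.01, with the length trend removed. Also in the core, EIF3L (0.41) and EIF3C (0.43) rose, EIF3K (-0.62) and EIF3M (-0.48) fell, and EIF3F (-0.24), EIF3H (0.10) and EIF3CL (0.22) did not pass the test. With the length trend removed these 3 were at 0.25, -0.25 and 0.06, also not called. EIF3F was, however, called as lower with the longest-transcript trend removed (-0.83), with length and GC trends removed (-0.98) and with DESeq2 (-0.29). Under total counts EIF3F was called as higher (0.28). With length and GC trends removed EIF3H was called as lower (-0.25) and EIF3CL as higher (0.27). EIF3C and EIF3CL are near-identical copies, and the division of reads between them is uncertain. Without the length trend EIF3C (0.25) and EIF3K (0.03) were no longer called, and EIF3M was at -0.96. The calls of EIF3C and EIF3L were lost without either shNT library, and that of EIF3M without shNT replicate 2.

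Outside the octamer 0 of 5 rose and 3 fell, against 31.9% and 29.1% of all genes tested. EIF3G, an RNA-binding subunit, was at 775 and 678 CPM in shNT and at 407 and 348 CPM in shGlud1 (-0.94, SE 0.15, adjusted p = 1.43e-09, and -0.39 with the length trend removed, still called). EIF3J (-0.68) and EIF3I (-0.59) also fell, and EIF3I lost its call with the length trend removed (-0.20, adjusted p = 0.14) and without shNT replicate 1. EIF3B (-0.16) and EIF3D (0.26), a subunit that can itself bind a cap, did not pass the test, although with the length trend removed EIF3B was called as lower (-0.32) and EIF3D as higher (0.41). Across the 13 subunits, leaving out EIF3CL, log2 fold change had a Spearman correlation of 0.599 with transcript length.

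Per kb of transcript the eIF3 subunits became more alike. The subunit with the highest signal per kb exceeded the lowest 136-fold and 114-fold in the shNT libraries, and 42.8-fold and 31.1-fold in shGlud1. The SD of log2 signal per kb over the 13 subunits was 2.16 and 2.08 in shNT and 1.88 and 1.73 in shGlud1. EIF3A took 0.180% and 0.202% of the complex's signal in shNT and 0.513% and 0.653% in shGlud1, while EIF3E went from 8.47% and 9.74% to 4.995% and 4.992%. The count of EIF3A was 0.0914 and 0.0894 times that of EIF3E in shNT and 0.442 and 0.564 times in shGlud1. Signal per kb fell with transcript length in each library, with a Spearman correlation over the subunits of -0.80 and -0.81 in shNT and -0.76 in both shGlud1 libraries. The part of length in this narrowing was not tested.

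The eIF4 group, which binds the cap and unwinds the leader, rose or did not pass the test in the fit without length correction. EIF4E, the cap-binding protein, was at 14.9 and 19.3 CPM in shNT and at 26.1 and 29.8 CPM in shGlud1 (0.71, SE 0.16, adjusted p = 1.88e-05). Its annotated principal transcript, at 11523 nt, is the longest of all members, and removing the length trend ended the call (0.01, adjusted p = 0.963). EIF4E3, a scarce relative, had 1.00 (adjusted p = 0.0216, lost with the length trend removed (0.32), with DESeq2, and without shNT replicate 1 or shGlud1 replicate 2). EIF4E2, which encodes the repressive cap-binding protein 4EHP, had -0.09 and 0.25 with the length trend removed, and was called in neither fit. With longest-transcript length and GC trends removed EIF4E2 was called as lower (-0.42).

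All 3 scaffold genes rose, where 31.9% of all genes tested did. EIF4G3, a relative of the main scaffold, had the largest rise of any member without length correction, from 11.7 and 12.7 CPM to 39.1 and 45.4 CPM (1.79, SE 0.16, adjusted p = 4.97e-29, and 1.24 with the length trend removed, where EIF2S3L was higher at 1.51). EIF4G1 (0.42) and EIF4G2 (0.46), whose product DAP5 works without eIF4E, rose by less. Both calls were lost without either shNT library. EIF4G1 was at -0.10 with the principal-transcript trend removed and was no longer called, and EIF4G2 was called as lower (-0.24) with longest-transcript length and GC trends removed. The count of EIF4G3 was 0.0340 and 0.0418 times that of EIF4G1 in shNT and 0.0872 and 0.108 times in shGlud1.

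Of the helicases and their cofactors 3 of 5 rose and 0 fell, against 31.9% and 29.1% of all genes tested. EIF4B, which stimulates eIF4A, was at 56.8 and 57.9 CPM in shNT and at 98.6 and 104 CPM in shGlud1 (0.82, SE 0.13, adjusted p = 1.79e-09, and 0.45 with the length trend removed, still called). EIF4H (0.37), a cofactor of the same kind, and EIF4A3 (0.31), the helicase of the exon junction complex, were called in the fit without length correction and lost the call without either shNT library and with RLE factors, and EIF4A3 also with DESeq2. EIF4A3 was at 0.60 with the principal-transcript trend removed and at 0.16, not called, with the longest-transcript trend removed. The helicase genes EIF4A1 (0.12) and EIF4A2 (-0.05) did not pass the test, though EIF4A1 passed as higher (0.39) once the length trend was removed. EIF4A2 was called as lower with the longest-transcript trend removed (-0.45) and with length and GC trends removed (-0.48). With the principal-transcript trend removed EIF4A2 was at 0.18 and not called. EIF4A2 stood at 0.0932 and 0.110 times the count of EIF4A1 in shNT and 0.0854 and 0.0961 times in shGlud1, and these ranges overlapped.

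The genes of the 4E-BPs, which keep eIF4E from its scaffold, diverged. EIF4EBP1 was at 385 and 378 CPM in shNT and at 234 and 196 CPM in shGlud1 (-0.82, SE 0.14, adjusted p = 2.25e-08). EIF4EBP2 was at 6.23 and 8.10 CPM in shNT and at 17.99 and 21.5 CPM in shGlud1 (1.46, SE 0.19, adjusted p = 1.67e-13). The first is among the shortest transcripts (1020 nt) and the second among the longest (7257 nt). With the length trend removed EIF4EBP1 was no longer called (-0.24, adjusted p = 0.0704), and with trends on the longest transcript and its GC share removed it was at 0.11, also not called. EIF4EBP2 kept its call with the length trend removed (0.83). EIF4EBP3 had 21.9 and 26.4 expected counts in shNT and 27.0 and 15.6 in shGlud1 (-0.71, SE 0.47, adjusted p = 0.181, and 0.0010 with the length trend removed). It lies inside the read-through gene ANKHD1-EIF4EBP3, so its reads are uncertain. The count of EIF4EBP1 was 25.9 and 19.6 times that of EIF4E in shNT and 8.96 and 6.60 times in shGlud1. This ratio sets an annotated principal transcript of 1020 nt against one of 11523 nt. The annotated transcripts of EIF4E have a median of 738 nt, and which of them these cells use was not measured. With the length trend removed EIF4EBP1 was at -0.24 and EIF4E at 0.01, neither called. With length and GC trends removed they were at 0.11 and -0.02, also not called. The part of length in this ratio was not tested. EIF4EBP2 was at 0.0162 and 0.0214 times the count of EIF4EBP1 in shNT and at 0.0769 and 0.110 times in shGlud1.

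**Figure D4:**
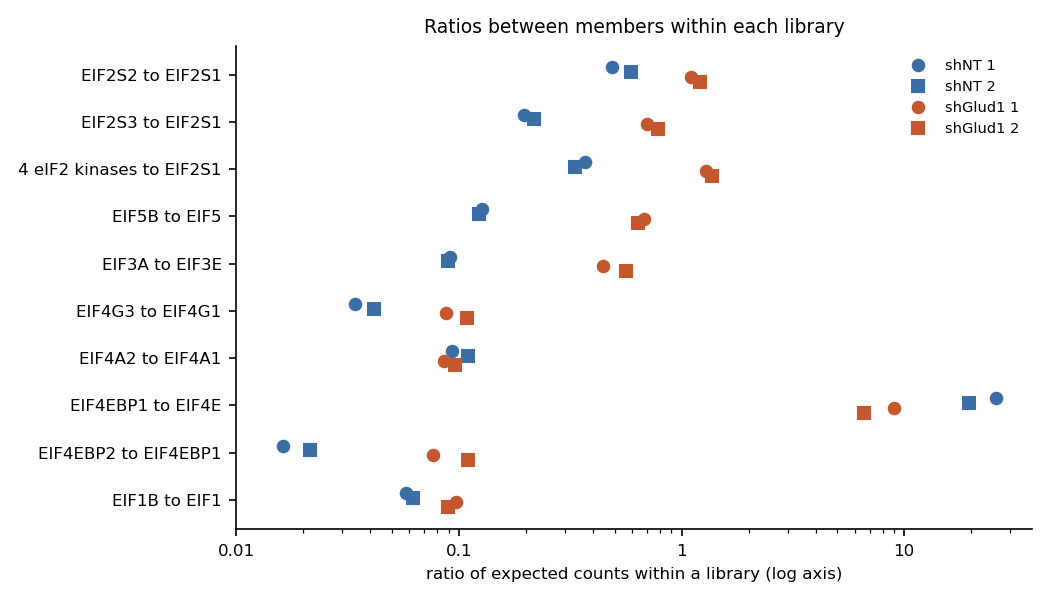
Ratio of the expected counts of named members within each library (x axis, log scale), which does not depend on library scaling; circles and squares are replicates 1 and 2. Of the 10 ratios, EIF4A2 to EIF4A1 alone overlaps between groups. The ratios of eIF2 subunits and kinases, of EIF5B to EIF5 and of EIF3A to EIF3E were chosen after their values were seen. Their lack of overlap therefore has no weight, and 81.0% of all single genes tested did not overlap either. EIF4EBP1 to EIF4E, a pair of unlike annotated transcript length, falls from 25.9 and 19.6 to 8.96 and 6.60.

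EIF6, which binds the large subunit and keeps it from joining too early, fell from 1368 and 1330 CPM to 606 and 458 CPM (-1.34, SE 0.16, adjusted p = 1.85e-16). With the length trend removed the fall was -0.88, still called. Per kb of transcript EIF6 was at 1061 and 1032 CPM in shNT, above EIF5A (1016 and 916) and EIF4A1 (767 and 743). In shGlud1 EIF6 was at 470 and 355 CPM per kb, below EIF5A (730 and 677) and EIF4A1 (822 and 813). EIF5A, the hypusine-bearing factor that helps elongation, was at 1536 and 1384 CPM in shNT and at 1102 and 1023 CPM in shGlud1 (-0.46, SE 0.16, adjusted p = 0.00781). Its call ended with the length trend removed (-0.08), under total counts (0.06) and without either shNT library. Its scarce relative EIF5A2 was at 5.42 and 4.84 CPM in shNT and at 6.996 and 8.98 CPM in shGlud1 (0.64, adjusted p = 0.0112), and was at 0.11 and not called with the length trend removed. EIF5A2 also lost its call with DESeq2 and without shNT replicate 2 or shGlud1 replicate 2. EIF1AD was at -0.28 (adjusted p = 0.0487) and lost that call with DESeq2, limma-voom and total counts, among others.

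Many mRNAs for ribosomal proteins and several translation factors begin with a terminal oligopyrimidine (TOP) tract, through which mTOR controls their translation, so the starts of such members are shown beside their changes. A C at the annotated first base followed by 4 bases that are each C or T was found at 4.07% of all promoter entries and in 9 of the 44 member genes with one (20.5%). The first share is of entries and the second of genes, and a gene can have several entries. Of these 9, 3 were called as higher and 3 as lower, close to the 31.9% and 29.1% of all genes tested. The 30 bases across the start read as follows, with the tract in capitals:
EIF2S3, higher, chrX:24054941-24054970, plus strand: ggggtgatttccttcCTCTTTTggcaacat
EIF4B, higher, chr12:53006441-53006470, plus strand: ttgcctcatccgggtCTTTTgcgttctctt
EIF2A, higher, chr3:150546772-150546801, plus strand: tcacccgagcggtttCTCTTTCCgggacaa
EIF2D, lower, chr1:206612451-206612480, minus strand: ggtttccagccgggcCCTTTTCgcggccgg
EIF3K, lower, chr19:38619173-38619202, plus strand: ttccgtttccaccacCTCTTCCTgttcccg
EIF3M, lower, chr11:32583816-32583845, plus strand: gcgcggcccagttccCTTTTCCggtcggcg
The other 3, EIF3D, EIF3F and EIF4A2, did not pass the test in the fit without length correction. Members with this start were thus found in both directions, as genes at large were, from -0.90 for EIF2D to 1.21 for EIF2S3. The library measures RNA abundance and says nothing of how these mRNAs were translated.

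The genes around the eIF2 step were read from a list of 17 genes for its phosphatases, regulators and effectors, of which 8 rose and 7 fell (median 0.34). Over all genes tested 31.9% rose and 29.1% fell (median 0.06). The list's median moved to 0.87 under total counts, where that of all genes was 0.57. For the list it was 0.02 with the longest-transcript trend removed and -0.06 with the principal-transcript trend removed. Of the genes that fell, DDIT3, which encodes CHOP, had a log2 fold change of -3.39 and TRIB3 one of -3.17. PPP1CC, a catalytic subunit of the phosphatase, rose by 0.87 and QRICH1 by 0.85. PPP1R15A and PPP1R15B, named after their values were seen, encode the stress-induced and the constant partner that bring this phosphatase to eIF2. PPP1R15A fell from 691 and 592 CPM to 69.3 and 72.0 CPM (-3.18, SE 0.16, adjusted p = 6.90e-90). PPP1R15B was at 4.83 and 8.10 CPM in shNT and at 11.5 and 14.1 CPM in shGlud1 (0.98, SE 0.21, adjusted p = 8.13e-06, lost with length and GC trends removed). ATF4, also named after its value was seen, fell from 1061 and 956 CPM to 294 and 283 CPM (-1.81, SE 0.15, adjusted p = 8.84e-30). Without length correction the kinase genes and ATF4, DDIT3, TRIB3 and PPP1R15A thus differed between the groups in opposite directions. The 8 genes of the list that rose went the way of the kinase genes. With the principal-transcript trend removed PKR and PERK were no longer called. Phosphorylation of eIF2 was not measured. Without shNT replicate 1 the list had 4 rises and 6 falls, and without shNT replicate 2 or shGlud1 replicate 2 it had 5 and 6.

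A list of 30 other translation factors and regulators of eIF4F had 13 rises and 11 falls (median 0.24, and -0.08 with the principal-transcript trend removed). Of all genes tested 31.9% rose and 29.1% fell. GSPT1, a termination factor gene, rose by 1.504 and PABPC1, which encodes the poly-A binding protein, by 1.13. The elongation factor gene EEF1B2 fell by 1.22 and EEF1E1, whose product sits in the tRNA synthetase complex, fell by 1.03. With the principal-transcript length trend removed 9 of the list rose and 10 fell, against 26.6% and 28.4% of all genes. Under total counts 19 of the list rose and 6 fell, against 51.9% and 13.7% of all genes.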

How the data were processed

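RNA was measured in 4 libraries of U87 cells, 2 per group. Per the labels' protocols, poly-A RNA from 1 µg of total RNA went into TruSeq V2 libraries with 12 PCR cycles and was read in pairs of 150 nt. The authors deposited expected counts (estimated reads per gene), of which 20.1% of the values other than 0 held a fraction. The submitters' processing notes list Bowtie 0.12.2 and a mouse build, mm8, yet all 57820 rows carry human gene IDs, so the build is uncertain. The counting program is not given in the sources used here.

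Counts were rounded and fitted in edgeR 4.0.16 (R 4.3.3): filterByExpr (minimum count 10), TMM, robust quasi-likelihood test, Benjamini-Hochberg over all 14616 genes, called under 0.05. SE is the absolute log2 fold change over the square root of F. Alternatives used DESeq2 1.42.0, limma 3.58.1 voom, other scalings and filters, a block, left-out libraries, and offsets from a lowess trend (span 0.3) of log2 CPM deviations on longest transcript length and GC share. A trend on the APPRIS principal transcript was added after the data were seen. Among tied transcripts, or where a gene had no APPRIS tag, the best support level and then the longest transcript was taken. GENCODE 29, matched on Ensembl ID, gave transcript lengths and GRCh38 positions. The fits were tested on simulated data. The members and lists were chosen with earlier results of these data known. Named by rule were all members, with values per library for the lowest p in each direction of each complex, the kinases, the eIF2 subunits, EIF4E and the 4E-BPs, and up to 2 rises and 2 falls of each list. Intervals and p-values do not cover PCR copies, since reads had no molecular identifiers.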

Additional observations from a re-analysis of the deposited data

How the results depend on the processing

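The count of members called as higher was 24 and lay between 19 (DESeq2) and 36 (total counts) under other tools, scalings and filters, and that of members called as lower was 15 and lay between 6 (total counts) and 19 (length and GC trends removed). With 1 library left out, where a group of 1 is assumed to vary like the other, 13 to 23 were higher and 11 to 15 lower. Members called as higher under the main settings and under total counts, both length trends and length with GC numbered 14, and those lower in all 5 numbered 5: EIF5, EIF2D, EIF3E, EIF3G and EIF6. The share of all genes called in all 5 fits was not computed, so these counts have no background to be set against. Nor was that share computed for the other tools, the RLE and upper-quartile factors or the other filters. The same holds for the replicate block and the fits without a shGlud1 library. The 14 include EIF2S3L, whose call depended on each single library. The replicate numbers pair nothing by the labels, the deviations of same-numbered libraries correlated at 0.0409, and with the replicate block 23 members were higher and 15 lower. In the eIF2 list 8 genes rose under the main settings, and 5 did with DESeq2, with length and GC trends removed and with the principal-transcript trend removed. That count was 4 to 9 with a library left out. In the list of other factors 8 rose with length and GC removed, against 13, and 6 fell under total counts, against 11. Among members called under the main settings, under the alternative or both, signs turned as follows, with the cause not tested for single genes, while under total counts the whole scale moved. Under total counts EIF1B was at 0.48, EIF2B2 at 0.41, EIF2B5 at 0.16, EIF3B at 0.36, EIF3F at 0.28, EIF3M at 0.035, EIF4A2 at 0.47, EIF4E2 at 0.43, EIF5A at 0.060 and EIF1AD at 0.24. With the longest-transcript trend removed EIF1B was at 0.58, EIF4G1 at -0.017, EIF4G2 at -0.093 and EIF5A at 0.0040. With GC share removed as well as longest-transcript length EIF1B was at 0.35, EIF2B4 at -0.27, EIF3H at -0.25, EIF4A3 at -0.065, EIF4E at -0.021, EIF4EBP1 at 0.11, EIF4G2 at -0.24 and EIF5A at 0.16. With the principal-transcript trend removed EIF1B was at 0.56, EIF3K at 0.030 and EIF4G1 at -0.10. At these depths members under 2 CPM (EIF2S3L, EIF4E3 and EIF4EBP3 in shNT) have standard errors of 0.40 to 0.53, so changes of their size are poorly bounded.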
